A study of Mus musculus with 6 samples.

Results

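TC-1/A9 is a mouse tumour cell line with low surface MHC class I, obtained from a tumour that TC-1 cells had formed in an immunized mouse. The parental TC-1 cells are C57BL/6 lung cells transformed with the HPV16 E6 and E7 oncogenes and an activated human Ha-ras. The RNA described here came from the TC-1/A9 cultures left untreated, which were the controls for cultures given IFNγ, and was read on Mouse WG6 bead arrays from Illumina. All cultures of the series shared the same line, the C57BL/6 background and the same RPMI medium, which held 2 mM L-glutamine, 10% FCS and antibiotics, at 37 °C under 5% CO2. The 3 untreated arrays, titled replicates 1, 2 and 3, were 3 of 6 arrays at hand, and the study's methods call such triplicates biological. Only these 3 arrays were described, so no groups were compared and no test was run. Because the RNA came from 1 line cultured in vitro, no stroma or infiltrating cells of a tumour were sampled.

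A probe was called detected when its detection p-value, the share of negative control probes of the same array that were as bright or brighter, was 0.01 or less on all 3 untreated arrays. Of 45281 probes, 11008 were detected in this way, which is 24.3% of the array. A further 755 probes were detected on 2 arrays, 1003 on 1 array and 32515 on none. Each array alone gave between 11504 and 12404 detected probes, and the median intensity was between 48.7 and 55.4. Signals are given as log2 of the intensity after quantile normalization over the 3 untreated arrays, as mean ± SD with n = 3 arrays. On this scale a probe was called detected from about 6.10 to 6.21 upwards, depending on the array, and the brightest probe reached 15.73. The number of arrays limits the precision of these values, and the files give no other depth.

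**Figure D1:**
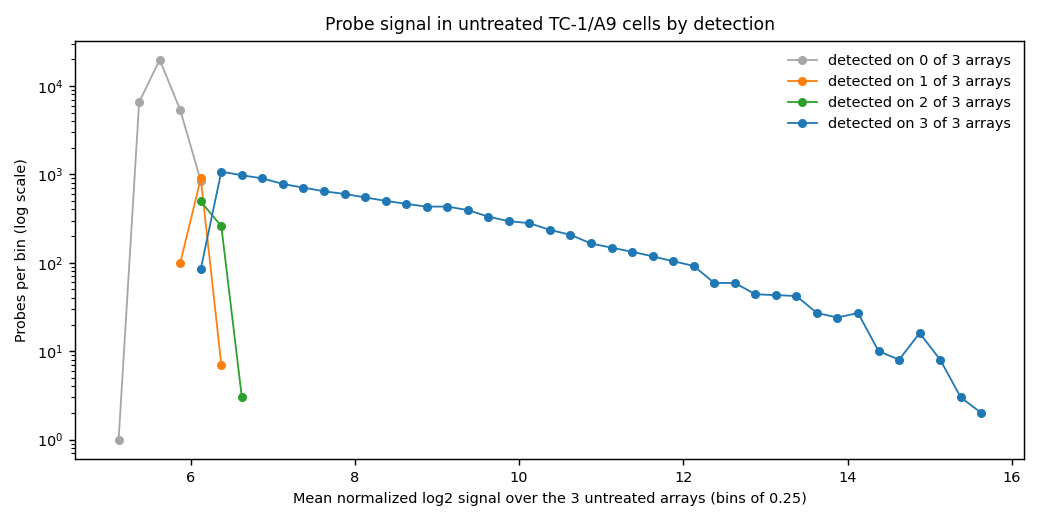
Number of probes per bin of mean normalized log2 signal over the 3 untreated arrays, on a log scale, with a separate line for probes detected at p of 0.01 or less on 0, 1, 2 or 3 arrays. Probes detected on no array peaked below 6, with a median of 5.60, whereas those detected on all 3 arrays stretched from 6.19 to 15.73 with a median of 7.89.

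Probes were named from the platform annotation, which pairs 11180 of the probes in the authors' value table with 1 gene symbol. That table holds probes detected on at least 2 of 3 arrays of either group of the series. This bears in a pair of ways on every count that follows. Of the 11008 detected probes, 1053 (9.57%) carry no name here, and a listed gene without a named probe was not analysed here, so nothing is said of whether it is expressed. In the other direction, a gene that is named but was detected on at most 1 untreated array has its name only because the arrays of IFNγ-treated cells detected it. The named probes gave 7807 genes, of which 7100 were detected, 384 were detected on 2 arrays, 192 on 1 array and 131 on none. Where a list below has no undetected named member, this follows largely from how probes were named and is not read as a result about the list. The detected genes comprised 6869 protein-coding genes, 62 lncRNA genes, 124 pseudogenes, 35 transcribed pseudogenes and 10 genes of another type or not matched to RefSeq. The protein-coding genes are 31.4% of the 21896 in RefSeq, and this share is the background against which the gene lists are read. The median signal of the detected genes was 8.21, with quartiles of 7.10 and 9.62.

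A gene is described by its brightest detected probe, and brightness depends on the probe as well as on the transcript. Among 2164 genes with several detected probes, the brightest and the dimmest differed by a median of 1.28 on the log2 scale, and 57.8% of these genes differed by more than 1. Signals of different genes are therefore not read as relative transcript amounts, and ranks order probes only. Dimmer probes are given below for some genes only, so a gene without such a value can also have probes that differ.

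**Figure D2:**
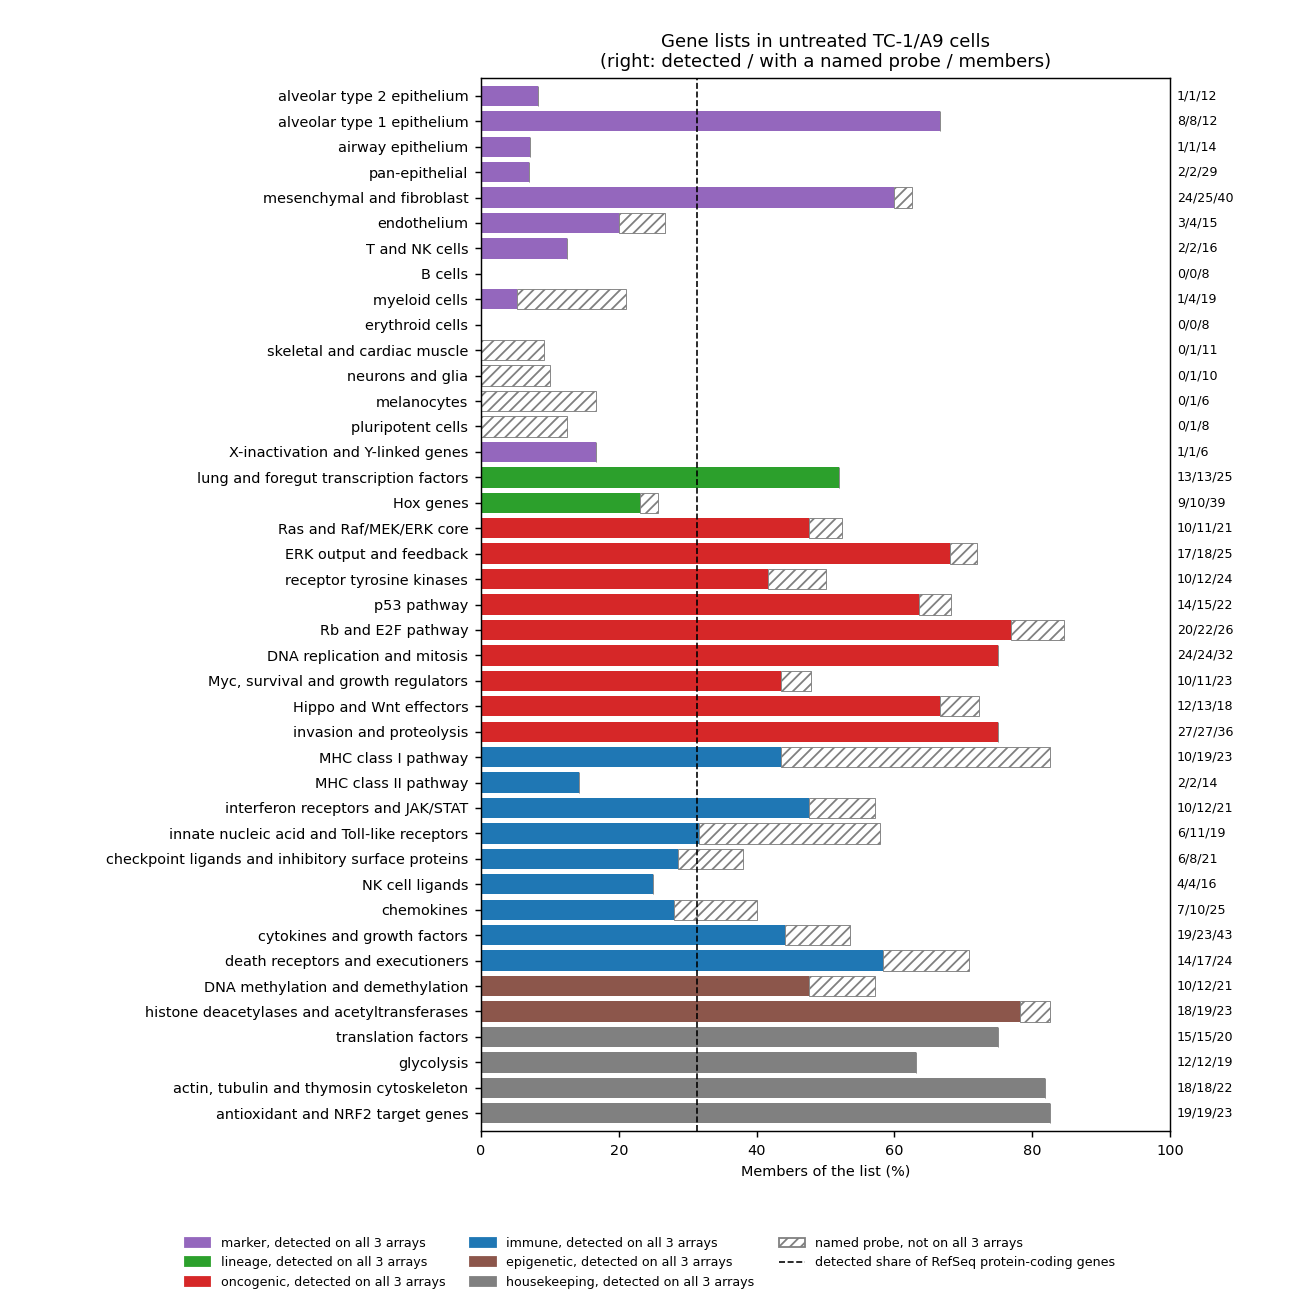
Share of the members of each of 41 gene lists that were detected on all 3 untreated arrays (filled bars, coloured by class) or that had a named probe but were not detected on all 3 (hatched), with the detected, named and total numbers at the right. The dashed line marks the 31.4% of RefSeq protein-coding genes that were detected. The filled bars of most of the 41 lists end beyond it, those of the mesenchymal, cell cycle, invasion and housekeeping lists among them. Those of the Hox, chemokine and most cell type marker lists end before it. Genes without a named probe are part of the total for the line and for the bars.

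Ribosomal protein genes were 10 of the 30 brightest genes, led by Rplp1 at 15.73 ± 0.02 and Rps2 at 15.72 ± 0.02, with Rpl41 at 15.22, Rpl38 at 14.99, Rpl9 at 14.87, Rps9 at 14.77, Rps29 at 14.76, Rpl35 at 14.58, Rps19 at 14.46 and Rpl37 at 14.33. Another 7 of the 30 carry pseudogene annotations (Gm3839, Rpsa-ps1, Gm9294, Gm15710, Gm4294, Gm6440 and Gm13215). A probe named for a processed pseudogene can also bind the transcript of its parent gene, so these 7 are uncertain as to their source. Of 99 ribosomal protein genes in RefSeq, 55 were detected, with a median of 13.14.

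The remaining bright genes are well-known abundant transcripts. The elongation factor gene Eef1a1 stood at 15.23 on every array, because its probe had the same rank on the 3 arrays and quantile normalization then gives the same value. The tubulins Tuba1b and Tubb5 reached 15.23 ± 0.05 and 15.01 ± 0.07, and β-actin, Actb, reached 14.34 ± 0.16 by its brightest of 5 probes, the dimmest of which stood at 7.89. The cyclophilin gene Ppia (14.90), the ATP synthase subunit gene Atp5b (14.83), the RNA-binding protein gene Ybx1 (14.48) and the histone gene H2ac24 (14.53) completed the housekeeping part of the 30. The rest were Mif, a cytokine that acts on macrophages (14.74 ± 0.02), the ferritin heavy chain gene Fth1 (14.66 ± 0.14), the metallothionein gene Mt1 (14.43 ± 0.20), S100a11 (14.42 ± 0.03) and Anxa2 (14.29 ± 0.10), the last 2 encoding calcium-binding proteins of the membrane and cytoskeleton.

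The housekeeping lists were widely detected. Translation factors were detected for 15 of 20 members (median 11.62), actin, tubulin and thymosin genes for 18 of 22 (10.70), glycolysis genes for 12 of 19 (11.34) and antioxidant genes, many of them targets of the transcription factor NRF2, for 19 of 23 (11.12). In glycolysis, the lactate dehydrogenase gene Ldha stood at 13.85 ± 0.08, the triosephosphate isomerase gene Tpi1 at 13.78, Pkm at 13.46 ± 0.15, Gapdh at 13.11 ± 0.01 and the glucose transporter gene Slc2a1 at 11.28 ± 0.28. Of the antioxidant genes, Gpx1 reached 14.16 ± 0.11, Gstp1 12.84 ± 0.06 and Prdx1 12.10 ± 0.16, whereas the NRF2 targets Nqo1, Hmox1 and Slc7a11 were detected at 7.88 ± 0.09, 7.15 ± 0.33 and 6.38 ± 0.02, in the lower part of the detected range. No named member of these 4 lists was undetected.

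The lineage genes were read next, since TC-1 cells derive from lung. Lung parenchyma contains type 1 alveolar cells, the flat cells of gas exchange, and type 2 cells, which make surfactant. Epithelial cells hold together by cadherin and keratin-based junctions, and cells of mesenchymal type instead carry vimentin, fibrillar collagens and the transcription factors of the SNAI, TWIST and ZEB families, which repress epithelial genes.

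Mesenchymal and fibroblast genes were detected for 24 of 40 members, with a median signal of 9.23. The intermediate filament gene Vim read 13.08, 13.48 and 13.32 on replicates 1, 2 and 3, and the collagen chaperone gene Serpinh1 read 13.36, 13.55 and 13.46. Both lay far above the detection limit on every array, although the other detected probe of Serpinh1 stood at 6.60. Matrix genes included Sparc at 12.07, 11.92 and 12.20 (its dimmest probe at 6.68), Col5a1 at 11.82, 11.74 and 11.79, the gelatinase gene Mmp2 at 11.97, 11.52 and 11.79, the crosslinking enzyme gene Lox at 9.44 ± 0.13, the fibronectin gene Fn1 at 9.03 ± 0.16 and Col6a1 at 8.15 ± 0.22. Contractile genes were also present, with Tpm1 at 13.01 ± 0.07, Tagln2 at 11.62 ± 0.04, Tpm2 at 9.95 ± 0.09 and the smooth muscle actin gene Acta2 at 11.04 ± 0.30, where replicate 1 was the lowest array. The hyaluronan receptor gene Cd44 stood at 11.51 ± 0.06.

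All 6 listed genes of the SNAI, TWIST and ZEB families were detected. Twist2 read 10.90, 11.03 and 10.94, Zeb1 8.62, 8.54 and 8.52, and Twist1 8.43, 8.37 and 8.66. Snai1 (6.98 ± 0.11), Snai2 (6.91 ± 0.14) and Zeb2 (6.29 ± 0.11) were detected on all 3 arrays but close to the limit. The limb and mesenchyme homeobox gene Prrx1 stood at 8.90 ± 0.07. Lower in the range were Fstl1 (8.33), Dcn (7.07), S100a4 (6.75) and Pdgfra (6.74). Col6a2 was the only named member not detected on all 3 arrays, with 6.20, 6.29 and 5.99 and detection on replicates 1 and 2. The other 15 members, Col1a1, Col1a2 and Col3a1 among them, were not analysed here.

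The epithelial lists were mostly without named probes. Of 29 pan-epithelial genes only 2 were analysed here, and both were detected near the limit. The zinc finger factor gene Ovol2 read 6.31, 6.69 and 6.59 and the ETS factor gene Elf3 read 6.12, 6.27 and 6.38. The E-cadherin gene Cdh1, Epcam, the listed keratins and the listed claudins were not analysed here. Of 12 type 2 alveolar genes only the lipid transporter gene Abca3 was analysed and detected (7.95, 8.17 and 8.05), and of 14 airway genes only Sox2 (7.13, 7.50 and 7.25). The defining surfactant and secretoglobin genes were not analysed here, so the labelled lung origin could be checked only in part.

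The type 1 alveolar list gave 8 of 12 members detected, above the 31.4% of all protein-coding genes. The mucin-type surface glycoprotein gene Pdpn read 12.14, 12.04 and 11.90, Emp2 10.47, 10.39 and 10.40, and the caveolin gene Cav1 10.34, 10.04 and 9.99. These genes are not restricted to type 1 cells, since Pdpn and the caveolins are also known from fibroblasts and other cells. The water channel gene Aqp5 stood at 7.69 ± 0.11, Vegfa at 7.63 ± 0.06, Cav2 at 7.37 ± 0.11, Rtkn2 at 6.87 ± 0.07 and Hopx at 6.82 ± 0.18. Ager, the usual defining marker of these cells, was not analysed here.

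**Figure D3:**
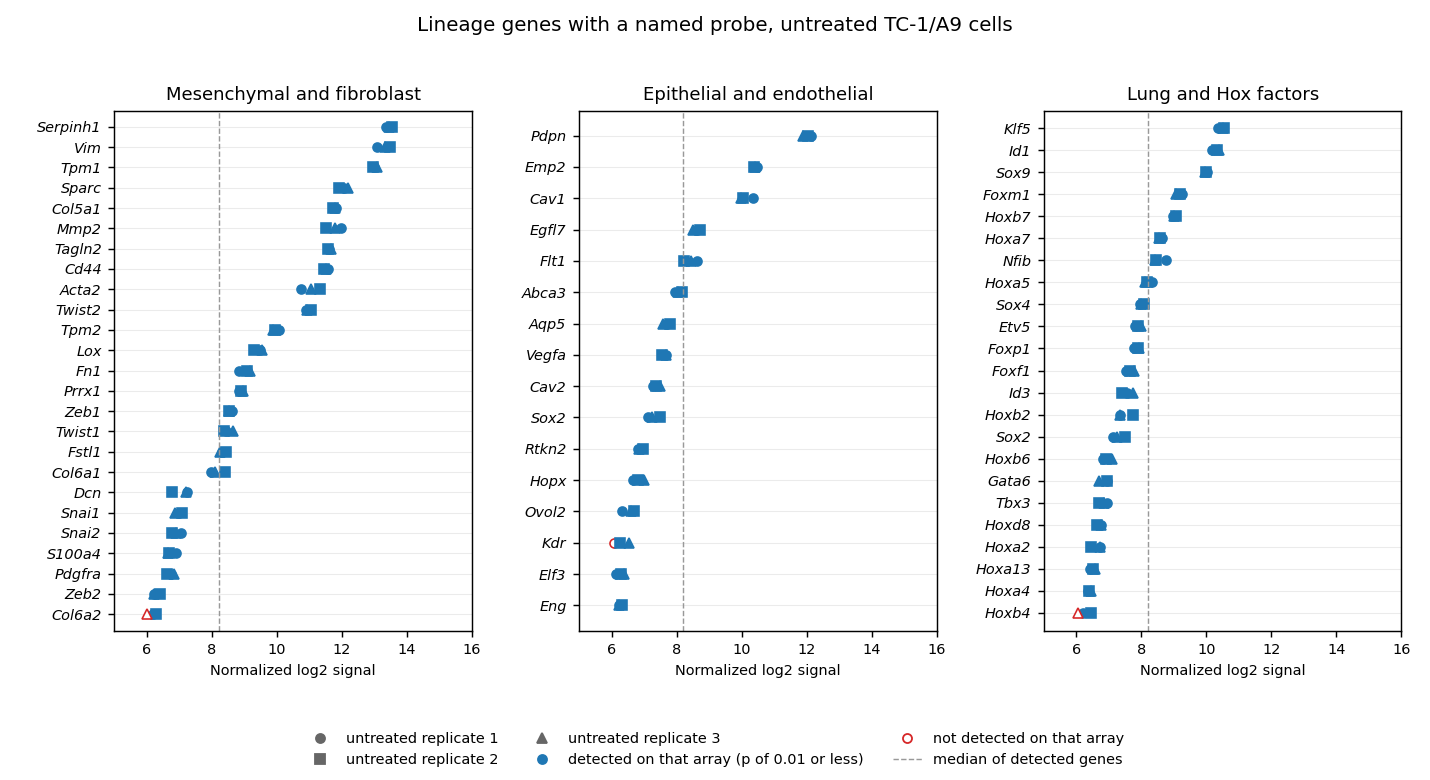
Normalized log2 signal of each named gene of the lineage lists on untreated replicates 1 (circles), 2 (squares) and 3 (triangles), filled where the probe was detected on that array. Mesenchymal genes reach 13.46 (Serpinh1), the epithelial and endothelial genes are led by Pdpn at 12.03, and open symbols are seen only for Col6a2, Kdr and Hoxb4.

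Transcription factors of lung and foregut development were detected for 13 of 25 members (median 7.89), and no named member was undetected. Klf5, a zinc finger factor of epithelial and proliferating cells, read 10.34, 10.54 and 10.50. Id1, an inhibitor of basic helix-loop-helix factors, read 10.17, 10.32 and 10.39, and Sox9, which marks distal lung progenitors and cartilage, read 10.03, 9.99 and 9.95. Foxm1, a factor of the mitotic programme, stood at 9.17 ± 0.08. Below these lay Nfib (8.54 ± 0.18), Sox4 (8.01 ± 0.07), Etv5 (7.89 ± 0.10), Foxp1 (7.87 ± 0.07), Id3 (7.56 ± 0.16), Gata6 (6.87 ± 0.14) and Tbx3 (6.83 ± 0.12). Foxf1, a factor of lung mesenchyme, read 7.52, 7.66 and 7.77. Nkx2-1, which defines lung epithelium, was not analysed here.

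Hox genes, whose combination records position along the body axis, were detected for 9 of 39 members, and 29 had no named probe. Those detected came mainly from the A and B clusters. Hoxb7 stood at 9.01 ± 0.05, Hoxa7 read 8.63, 8.58 and 8.55, and Hoxa5, which is needed for lung development in mice, 8.34, 8.17 and 8.10. The others were Hoxb2 (7.47 ± 0.23), Hoxb6 (6.94 ± 0.14), Hoxd8 (6.72 ± 0.07), Hoxa2 (6.64 ± 0.16), Hoxa13 (6.50 ± 0.08) and Hoxa4 (6.39 ± 0.05). Hoxb4 was detected on replicates 1 and 2 only (6.20, 6.46 and 6.04).

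Of the markers of other cell types few had a named probe, so their counts say little of these cells. Of 15 endothelial genes 4 were analysed and 3 were detected, namely Egfl7 (8.61 ± 0.12), the VEGF receptor gene Flt1 (8.42 ± 0.20) and Eng (6.25 ± 0.05), and Kdr was detected on 2 arrays. Of 16 T and NK cell genes 2 were analysed, and both, Prf1 (6.75 ± 0.23) and Ccl5 (6.43 ± 0.09), were detected near the limit. Of 19 myeloid genes 4 were analysed, of which Cd14 was detected at 8.08 ± 0.08, and Cd68 (6.32), Aif1 (6.26) and Csf1r (6.21) on 2 arrays each. None of the 8 B cell and none of the 8 erythroid genes had a named probe. The desmin gene Des (6.17), Map2 (6.34) and Pou5f1 (6.22) were detected on 2 arrays and Mitf (6.14) on 1 array, each the only named member of the muscle, neural, pluripotency or melanocyte list. Xist, the RNA that coats the inactive X chromosome, read 7.78, 7.46 and 7.82 with 3 of its 4 probes detected, and none of 256 Y-linked protein-coding genes had a named probe. On the X chromosome 20.4% of 966 protein-coding genes were detected, against 25.2% to 38.3% on the autosomes.

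TC-1 cells carry oncogenes that act on known pathways. Activated Ras signals through the Raf, MEK and ERK kinases, and ERK induces immediate early transcription factors together with phosphatases and Sprouty-type proteins that feed back on the pathway. The E7 protein of HPV16 inactivates the retinoblastoma protein and so releases E2F factors, while E6 directs p53 to degradation. The transfected human and viral sequences were not analysed here, and the values below are those of mouse genes.

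The ERK output and feedback list was detected for 17 of 25 members with a median of 9.49, and Spry4 was the only named member below the criterion (6.47, 6.09 and 6.28, detected on 2 arrays). The cyclin D1 gene Ccnd1, a cell cycle target of the pathway, read 13.04, 13.34 and 13.20, with its dimmest probe at 10.42. Emp1 read 12.97, 12.74 and 12.82, Ier3 12.21, 12.49 and 12.55, and the immediate early factor gene Egr1 11.69, 11.56 and 11.47. The EGF receptor ligand gene Hbegf stood at 10.75 ± 0.07. The dual-specificity phosphatase gene Dusp6, a feedback inhibitor of ERK, read 10.38, 9.92 and 10.04 by 1 of 3 named probes, and Dusp4 stood at 8.99 ± 0.05. The AP-1 genes Junb (10.00 ± 0.29), Jun (9.32 ± 0.04) and Fos (7.74 ± 0.11), the ETS factor gene Etv4 (9.38 ± 0.15), and Phlda1 (9.68 ± 0.21), Epha2 (9.49 ± 0.10), Plaur (8.45 ± 0.06) and Spred1 (8.29 ± 0.15) were detected. Myc read 6.77, 7.30 and 7.23, with replicate 1 below the other arrays.

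Of the Ras, Raf, MEK and ERK genes themselves, 10 of 21 were detected. The mouse Hras gene read 9.60, 9.62 and 9.43, and whether its probe also binds the transfected human transcript was not tested. Nras stood at 11.47 ± 0.15 by 1 of 2 named probes. The adaptor gene Shc1 stood at 12.45 ± 0.08 with its other probe at 6.40. The phosphatase gene Ptpn11 read 11.88 ± 0.08 (dimmest probe 8.26), and the MEK gene Map2k2 10.46 ± 0.28 by 1 of 2 named probes. Araf (9.80 ± 0.12) and Mras (9.27 ± 0.07) had their dimmest probes at 6.33 and 7.61. The GTPase-activating gene Rasa1 stood at 9.91 ± 0.35, Rras at 8.82 ± 0.25 and Rras2 at 6.54 ± 0.20. Grb2 was detected on 2 arrays (6.30 ± 0.23). Braf and Mapk3 were not analysed here.

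Receptor tyrosine kinase genes were detected for 10 of 24 members. Axl, the receptor for the ligand GAS6, read 13.52, 13.63 and 13.51, while its other detected probe stood at 6.50. The remaining detected receptors were Igf1r (8.74 ± 0.09), Ephb4 (8.27 ± 0.14), the collagen receptor gene Ddr1 (7.42 ± 0.07), Insr (7.30 ± 0.07), Erbb2 (7.01 ± 0.16), Fgfr1 (6.91 ± 0.14), Pdgfra (6.74 ± 0.10), and the AXL relatives Tyro3 (6.49 ± 0.08) and Mertk (6.31 ± 0.02). Ddr2 was detected on 2 arrays (6.31), and the named probe of Met, the hepatocyte growth factor receptor gene, was detected on none (5.98, 6.12 and 6.06). Egfr was not analysed here.

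Genes of the Rb and E2F pathway were detected for 20 of 26 members (median 8.43). E2f1 read 10.78, 11.01 and 10.74, the E2F partner gene Tfdp1 stood at 11.36 ± 0.13, and the other E2F genes detected were E2f6 (10.48), E2f4 (7.85), E2f3 (7.75), E2f5 (7.40) and E2f2 (6.64). Cdkn2a, which encodes the INK4A and ARF tumour suppressors, read 10.97, 10.80 and 11.11 with 3 of 3 probes detected, and the related inhibitor genes Cdkn2b (9.41 ± 0.20), Cdkn2c (9.0 ± 0.08) and Cdkn2d (6.97 ± 0.23) were also detected. The kinase and cyclin genes Ccnd3 (10.84), Cdk4 (10.68), Cdk2 (10.37), Ccne2 (7.79) and Ccne1 (7.10) were detected, as were the pocket protein genes Rb1 (7.16 ± 0.03) and Rbl1 (6.71 ± 0.13). The named probe of Cdk6 was detected on 1 array (6.09) and that of the inhibitor gene Cdkn1b on none (6.01 ± 0.05).

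DNA replication and mitosis genes were detected for 24 of 32 members. No named member was undetected, beside 7100 detected of all 7807 named genes. Their median signal was 10.22, beside 8.21 over all detected genes, and is a property of these probes as well as of the transcripts. The replicative helicase genes Mcm4 (12.72 ± 0.12, other probe 6.23), Mcm5 (12.29 ± 0.07) and Mcm2 (10.76 ± 0.08), the nucleotide synthesis genes Tyms (11.63 ± 0.07) and Tk1 (11.05 ± 0.07), and the mitotic genes Cdc20 (12.00 ± 0.12), Birc5 (11.14 ± 0.23) and Plk1 (10.84 ± 0.16) were the brightest. The proliferation marker gene Mki67 read 9.94, 9.51 and 9.75.

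Genes that p53 activates, together with their regulators, were detected for 14 of 22 members (median 7.81). The cell cycle inhibitor gene Cdkn1a read 11.68, 11.53 and 11.56, with its dimmest probe at 8.56, and the p53 ligase gene Mdm2 read 10.79, 10.89 and 10.86. Phlda3 (10.34 ± 0.17), Ccng1 (10.27 ± 0.18), Plk2 (8.62 ± 0.27), Zmat3 (8.45 ± 0.27), the death receptor gene Tnfrsf10b (7.88 ± 0.14) and Ddit4 (7.74 ± 0.32) followed. The BH3-only gene Bbc3 stood at 7.66 ± 0.10, whereas the named probe of Pmaip1, another BH3-only gene, was detected on no array (6.10 ± 0.03). The p53 gene itself was not analysed here.

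Among survival and growth regulators, 10 of 23 were detected, led by Tsc2 (11.27 ± 0.07), Mcl1 (9.24 ± 0.10), Bcl2l2 (9.10 ± 0.03) and Mycl (8.74 ± 0.05), and the named probe of the MYC partner gene Max was detected on none (5.94 ± 0.05). Of 18 Hippo and Wnt effectors 12 were detected, among them the YAP targets Ccn2 (10.50 ± 0.11), Ccn1 (9.81 ± 0.35) and Ankrd1 (9.59 ± 0.13) and the effectors Tead2 (9.93 ± 0.08), Wwtr1 (8.50 ± 0.13) and Yap1 (8.01 ± 0.18), and Apc was detected on 2 arrays (6.30). Genes of invasion and proteolysis were detected for 27 of 36 members with no named member undetected. The protease inhibitor gene Timp1 (14.23 ± 0.03), the galectin genes Lgals1 (13.82 ± 0.08) and Lgals3 (12.45 ± 0.05), the membrane protease gene Mmp14 (11.59 ± 0.06), Timp2 (11.31 ± 0.08) and the cathepsin gene Ctsb (11.17 ± 0.03) were bright. The stromelysin genes Mmp10 and Mmp3 stood at 9.78 ± 0.24 and 9.30 ± 0.14.

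**Figure D4:**
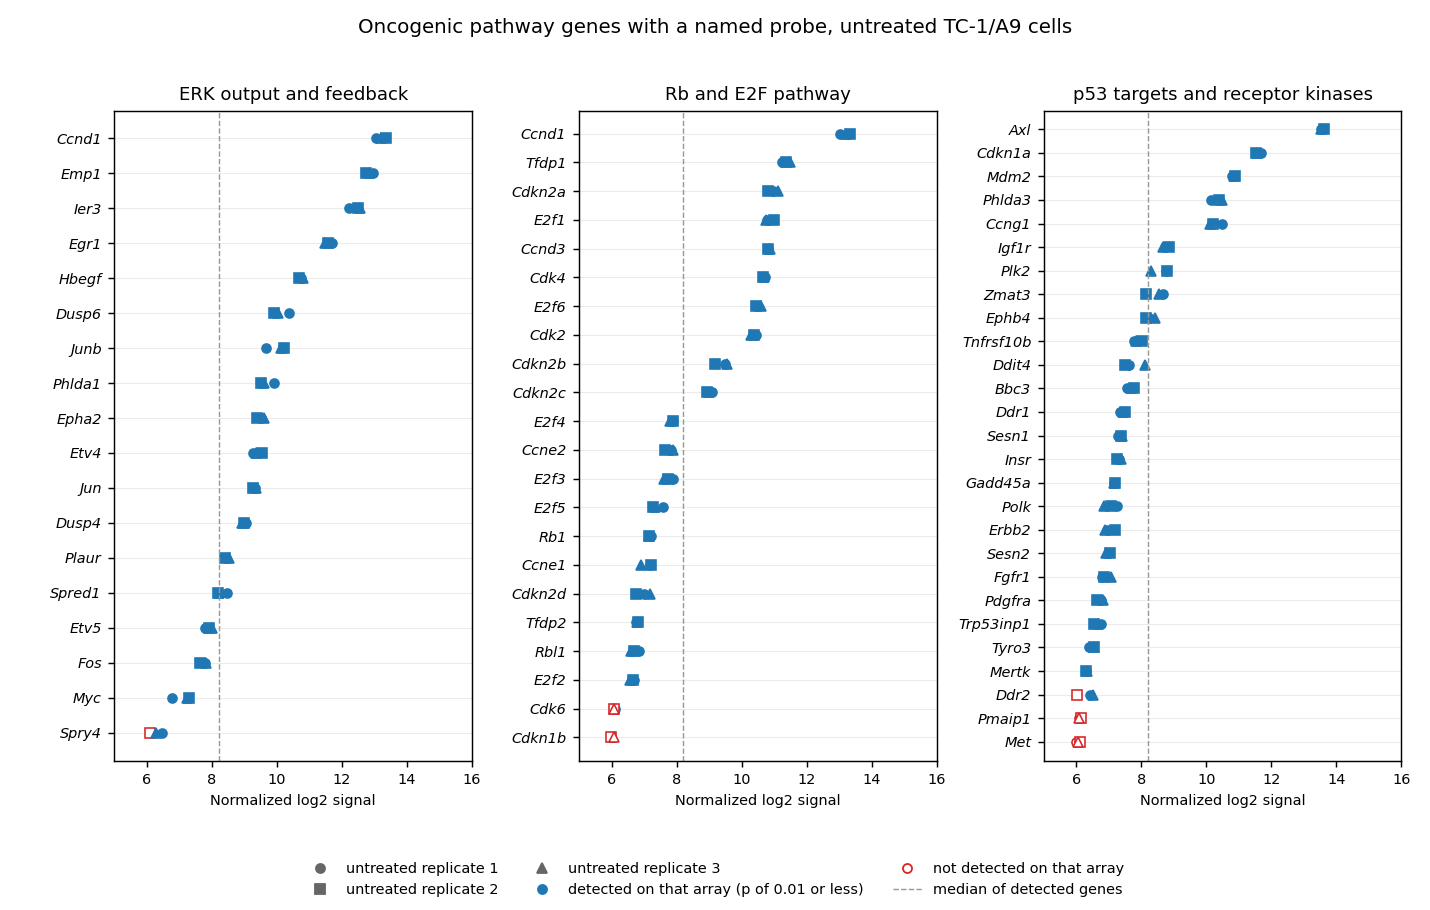
Normalized log2 signal of named genes of the ERK, Rb/E2F, p53 and receptor kinase lists on the 3 untreated arrays (symbols by replicate, filled where detected). Ccnd1 and Axl lie at 13.19 and 13.55, and the genes with open symbols (Spry4, Cdk6, Cdkn1b, Ddr2, Pmaip1, Met) lie below 6.6.

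MHC class I presents peptides that the proteasome cuts, that the TAP transporter carries into the endoplasmic reticulum and that a loading complex places on a heavy chain paired with β2-microglobulin. IFNγ replaces proteasome subunits by those of the immunoproteasome and is a known inducer of most steps, through STAT and IRF factors and the transactivator NLRC5. In TC-1/A9 cells, the paper reports methylation at the Tap1/Psmb9 and Tap2 promoters and its loss after IFNγ. For Psmb8 it saw such loss only in a more distant upstream region, which the window of that gene below does not reach. Promoters of 5 genes of the pathway are shown because the untreated signals divide there, with B2m and H2-D1 detected and Tap1, Psmb9, Psmb8 and H2-K1 not. The sequences are RefSeq windows of GRCm38.p6 around the transcription start, each of 300 bases, read 5′ to 3′ on the strand of the gene, with CpG dinucleotides in capitals. The windows of Tap1 and Psmb9, which lie head to head, share 275 bases, so that of Psmb9 (chr17:34187281-34187580, minus strand) is not repeated.
B2m, chr2:122147437-122147736, plus strand: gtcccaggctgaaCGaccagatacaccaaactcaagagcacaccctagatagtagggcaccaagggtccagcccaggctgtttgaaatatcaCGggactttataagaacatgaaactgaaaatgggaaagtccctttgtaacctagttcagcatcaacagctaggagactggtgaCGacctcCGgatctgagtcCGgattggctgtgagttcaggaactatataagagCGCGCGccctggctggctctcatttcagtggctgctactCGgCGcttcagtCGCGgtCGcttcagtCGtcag
H2-D1, chr17:35262844-35263143, plus strand: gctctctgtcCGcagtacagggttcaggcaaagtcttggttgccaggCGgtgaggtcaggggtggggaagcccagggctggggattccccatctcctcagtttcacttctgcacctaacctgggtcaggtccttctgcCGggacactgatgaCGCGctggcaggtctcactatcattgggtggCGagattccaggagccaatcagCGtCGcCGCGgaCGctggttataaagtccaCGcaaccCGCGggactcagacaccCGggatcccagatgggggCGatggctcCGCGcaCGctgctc
Tap1, chr17:34187306-34187605, plus strand: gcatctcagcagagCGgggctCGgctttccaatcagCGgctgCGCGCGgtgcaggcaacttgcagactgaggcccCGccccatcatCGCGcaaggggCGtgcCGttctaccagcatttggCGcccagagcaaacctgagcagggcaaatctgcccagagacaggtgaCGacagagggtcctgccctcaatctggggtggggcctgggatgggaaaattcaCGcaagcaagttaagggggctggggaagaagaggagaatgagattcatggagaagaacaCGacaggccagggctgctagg
Psmb8, chr17:34197945-34198244, plus strand: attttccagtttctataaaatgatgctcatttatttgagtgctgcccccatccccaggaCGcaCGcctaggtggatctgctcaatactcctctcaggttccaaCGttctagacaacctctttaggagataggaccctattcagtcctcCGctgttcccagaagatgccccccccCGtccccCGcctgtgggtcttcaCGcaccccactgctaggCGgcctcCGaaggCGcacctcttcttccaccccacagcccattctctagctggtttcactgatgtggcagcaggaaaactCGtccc
H2-K1, chr17:34000298-34000597, minus strand: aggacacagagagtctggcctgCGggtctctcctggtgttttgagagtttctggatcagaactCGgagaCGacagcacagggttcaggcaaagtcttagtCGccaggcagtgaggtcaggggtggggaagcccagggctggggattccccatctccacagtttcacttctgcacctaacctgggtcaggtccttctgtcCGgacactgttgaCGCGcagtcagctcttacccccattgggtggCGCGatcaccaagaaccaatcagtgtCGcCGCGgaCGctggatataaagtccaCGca

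The searched motif was CG, which reads the same on both strands. The B2m window held 14 CpG, that of H2-D1 19, that of Tap1 15, that of Psmb9 17, that of Psmb8 11 and that of H2-K1 14, and that of the tapasin gene Tapbp, which was detected, held 11. RefSeq gives H2-K1 a second start, whose window (chr17:34000284-34000583) held 15 and largely overlaps the one shown. Among the genes given here, the CpG numbers of detected and undetected ones overlapped. The undetected ones carry names only because the arrays of IFNγ-treated cells detected them, so no conclusion on undetected genes is drawn. No window was available for Tap2 or Nlrc5. Of 32851 windows in RefSeq, 94.6% held at least 1 CpG and 43.5% held 10 or more. These genes and the cut-off of 10 were chosen after the signals were seen. The arrays measure no methylation.

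The CpG number was also summarized across protein-coding genes with a window. The windows of 5722 detected protein-coding genes held a median of 22 CpG (quartiles 15.5 and 29). Those of 542 genes with a named probe but without detection on all 3 arrays held a median of 18 (quartiles 10 and 26). Of these, the 98 detected on no array held a median of 14.75 (quartiles 7 and 23), and the rest passed on some arrays. The 98 carry names only because the arrays of IFNγ-treated cells detected them, so neither value stands for undetected genes at large. All 11769 genes without a detected named probe, these 542 included, had a median of 7 (quartiles 2 and 19). Most of the 11769 were not analysed here, so this lower value is not read as one of undetected genes.

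Of 23 genes of the MHC class I pathway, 19 were analysed and 10 were detected on all 3 arrays (median 8.92), while 7 were detected on none, H2-Q5 on 2 and Tap2 on 1. The light chain gene B2m read 11.53, 11.41 and 11.41 with 2 of 2 probes detected. The heavy chain gene H2-D1 read 8.83, 8.79 and 8.69, and H2-K1 read 6.06, 6.11 and 6.00 with detection p-values of 0.016, 0.0192 and 0.0385. On every array H2-D1 was thus detected and H2-K1 was below the limit. At a limit of 0.05 the H2-K1 probe would have passed on every array. The paper, citing earlier studies of this line, describes expression of both heavy chain genes, of B2m and of Tapbp as robust. It describes Tap1, Tap2, Psmb8 and Psmb9 as silenced. The non-classical heavy chain genes H2-T23 (6.62, 6.88 and 6.95) and H2-M3 (6.62, 6.71 and 6.78) were detected near the limit, and H2-Q7 (5.98, 6.04 and 6.05) was not. Many heavy chain genes resemble each other closely in sequence, so the assignment of their probes is uncertain.

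The transporter and immunoproteasome genes were divided. Tap1 read 5.67, 5.75 and 5.73, within the range of undetected probes, and its detection p-values were 0.322, 0.19 and 0.23. Tap2 read 6.05, 6.14 and 6.28 and passed only on replicate 3. The immunoproteasome subunit genes Psmb8 (5.80, 5.77 and 5.85) and Psmb9 (5.70, 5.78 and 6.00) were detected on no array, whereas the third subunit of that kind, Psmb10, read 9.92, 10.05 and 10.05. The genes of the proteasome activator PA28, Psme1 (10.21, 10.16 and 10.03) and Psme2 (8.67, 8.62 and 8.77), were detected.

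Genes of peptide loading other than Tap1 and Tap2 were detected in part. The thiol reductase gene Pdia3 stood at 11.63 ± 0.18, the calreticulin gene Calr at 9.07 ± 0.02 and the tapasin gene Tapbp at 6.80 ± 0.21. For Tapbp replicate 1 was the lowest (6.57), and its other detected probe stood at 6.50. The tapasin-related gene Tapbpl (5.96, 5.92 and 6.09) and the transactivator gene Nlrc5 (5.79, 5.84 and 5.71) were detected on no array. The 7 genes at 0 of 3 arrays are H2-K1, H2-Q7, Tap1, Tapbpl, Psmb8, Psmb9 and Nlrc5. They carry names because the arrays of IFNγ-treated cells detected them, so this count of 7 of 19, beside 131 of all 7807 named genes, depends on how probes came to be named.

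**Figure D5:**
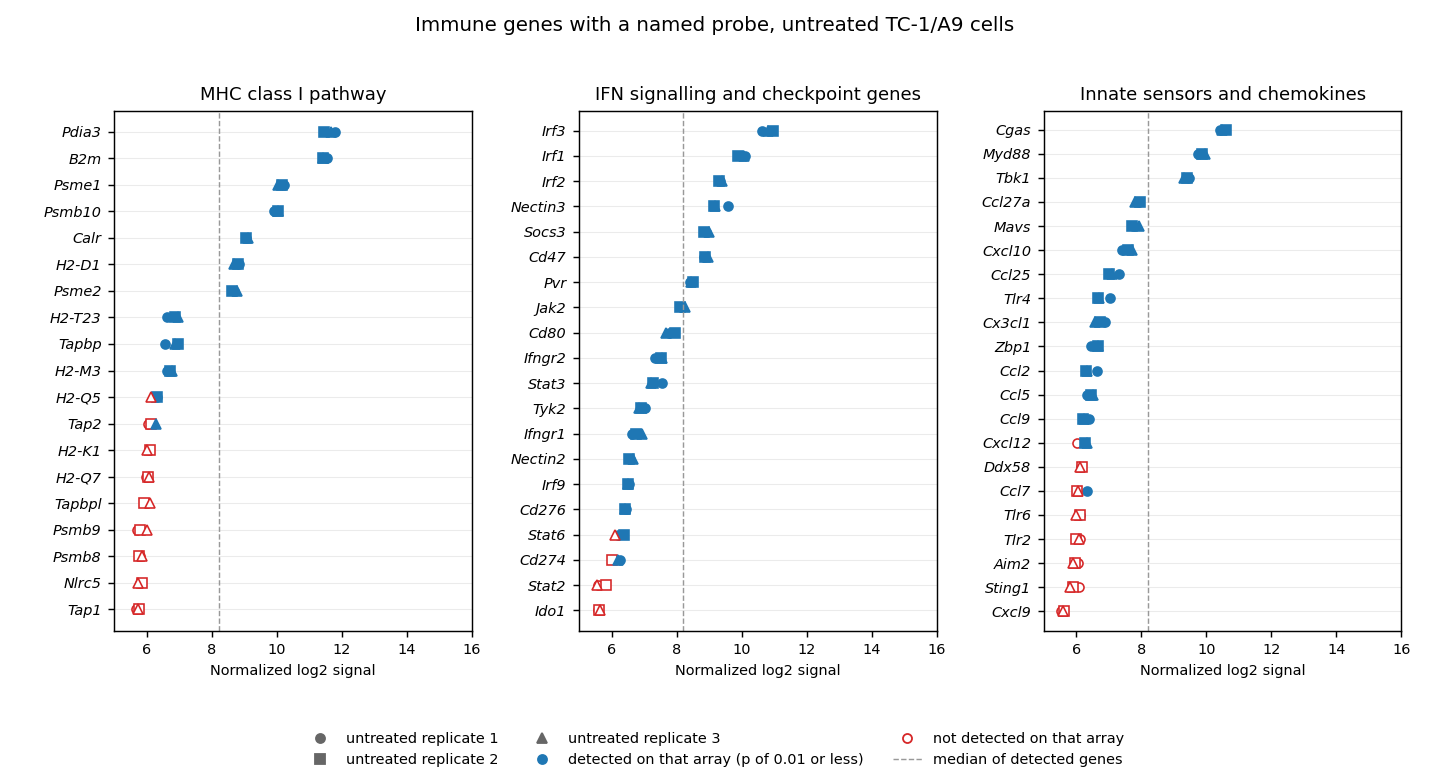
Normalized log2 signal of named immune genes on untreated replicates 1, 2 and 3, filled where the probe was detected on that array and open where it was not, with a dashed line at the median of detected genes (8.21). In the class I panel Pdia3 and B2m lie above 11 and Tap1, Nlrc5, Psmb8 and Psmb9 lie at or below 6.00 with open symbols on all 3 arrays.

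Of 21 genes of interferon receptors and JAK/STAT signalling, 10 were detected (median 7.81). The IFNγ receptor genes Ifngr1 (6.63, 6.74 and 6.92) and Ifngr2 (7.32, 7.52 and 7.54) were detected on every array, and so was the receptor-bound kinase gene Jak2 (8.13, 8.11 and 8.27). Irf1, an interferon-inducible transcription factor gene, read 10.12, 9.88 and 10.07 with 4 of 5 probes detected, the dimmest at 6.97. Irf3, a factor of nucleic acid sensing, read 10.61, 10.97 and 10.80 (dimmest probe 6.27). Irf2 (9.34 ± 0.04), the feedback inhibitor gene Socs3 (8.91 ± 0.08), Stat3 (7.34 ± 0.19), Tyk2 (6.92 ± 0.08) and Irf9 (6.51 ± 0.01) were detected. Stat6 was detected on 2 arrays (6.24 ± 0.14), and Stat2 read 5.58, 5.82 and 5.55 and was detected on none. Jak1 was not analysed here.

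MHC class II genes were almost wholly unnamed. Only 2 of 14 were analysed and detected, the promoter-binding factor gene Rfxap (8.53 ± 0.12) and the lysosomal thiol reductase gene Ifi30 (7.81 ± 0.08). Among 21 checkpoint and inhibitory surface genes, 6 were detected, a share near the background. These were the adhesion ligands Nectin3 (9.59, 9.15 and 9.18), Pvr (8.41, 8.51 and 8.44) and Nectin2 (6.59 ± 0.06), the phagocytosis inhibitor gene Cd47 (8.84, 8.87 and 8.96), the costimulatory gene Cd80 (7.78, 7.95 and 7.68) and Cd276 (6.42 ± 0.01). Cd274, which encodes PD-L1, read 6.25, 6.01 and 6.20 and was detected on replicates 1 and 3. Ido1, the tryptophan-degrading enzyme gene, read 5.59, 5.61 and 5.65 and was detected on none. NK cell ligand genes were detected for 4 of 16 members, of which Clec2d (7.11 ± 0.13) has not been given above.

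Innate sensors were detected for 6 of 19 members, close to the background. The DNA sensor gene Cgas read 10.43, 10.59 and 10.47, but its downstream adaptor gene Sting1 read 6.09, 5.88 and 5.79 and was detected on no array. Myd88 (9.85 ± 0.12), Tbk1 (9.39 ± 0.09), Mavs (7.78 ± 0.12), Tlr4 (6.79 ± 0.20) and Zbp1 (6.59 ± 0.13) were detected, Ddx58 (6.14) and Tlr6 (6.08) on 1 array, and Tlr2 (6.05) and Aim2 (5.97) on none. Chemokine genes were detected for 7 of 25 members (28%, near the background of 31.4%), and 15 had no named probe. Ccl27a (7.90 ± 0.07) and Cxcl10, a ligand that attracts activated T cells (7.39, 7.59 and 7.70), were the brightest, followed by Ccl25 (7.14), Cx3cl1 (6.72), Ccl2 (6.43), Ccl5 (6.43) and Ccl9 (6.28). Cxcl12 was detected on 2 arrays (6.21), Ccl7 on 1 (6.13) and Cxcl9, another ligand of the same receptor as Cxcl10, on none (5.53, 5.63 and 5.58).

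Cytokines and growth factors were detected for 19 of 43 members. Besides Mif, these included Grn (10.89 ± 0.13), Vegfb (9.87 ± 0.08), Pdgfa (9.81 ± 0.17), the activin subunit gene Inhba (9.69 ± 0.05), Fgf7 (9.02 ± 0.21) and the macrophage growth factor genes Csf1 (8.15 ± 0.11) and Il34 (7.88 ± 0.18). Tgfb1 stood at 7.77 ± 0.10. Il23a was detected on 2 arrays (6.23), Tnfsf9 (6.16) and Il7 (6.11) on 1, and Il15 on none (5.96). Death receptor and executioner genes were detected for 14 of 24 members, with the necroptosis effector gene Mlkl (10.33 ± 0.14), the cytochrome c gene Cycs (9.97 ± 0.17), Fadd (9.45 ± 0.04), Diablo (9.41 ± 0.11), Cflar (8.96 ± 0.04), Apaf1 (8.85 ± 0.09) and Casp8 (8.24 ± 0.04). Casp4 was detected on 2 arrays (6.27), and Fas (6.19, 6.18 and 6.02) and Tnfrsf1b (6.08) on 1.

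A list on DNA methylation, which also holds genes of proteins that bind methylated DNA, was detected for 10 of 21 members (median 8.07). It includes the DNA helicase gene Helb, which is not known to act on DNA methylation and is counted among the 10. The maintenance methyltransferase gene Dnmt1 read 9.51, 9.04 and 9.24, and its cofactor gene Uhrf1 read 11.09, 11.01 and 10.98. The de novo methyltransferase gene Dnmt3b was detected on 2 arrays (6.15, 6.41 and 6.11). Also detected were Gadd45g (10.59 ± 0.04), Mbd3 (9.56 ± 0.18), Helb (8.47 ± 0.06), Mbd1 (7.68 ± 0.14), Gadd45a (7.16 ± 0.01), the thymine DNA glycosylase gene Tdg (6.76 ± 0.13), Gadd45b (6.74 ± 0.14) and Apobec1 (6.64 ± 0.14). Apobec3 was detected on none (5.93 ± 0.08), and Dnmt3a and the Tet genes were not analysed here. Histone deacetylase, acetyltransferase and Polycomb genes were detected for 18 of 23 members, led by Suz12 (10.05 ± 0.16), Hdac3 (10.01 ± 0.08), Hdac2 (9.87 ± 0.10) and Kat2a (9.0 ± 0.01). Kat2b was detected on none (6.01 ± 0.08).

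Pearson's correlation between pairs of arrays was 0.994 to 0.995 across all probes and 0.992 to 0.996 across detected probes. Spearman's rho was 0.875 to 0.882 across all probes, most of them undetected, and 0.985 to 0.991 across detected probes. These are correlations across probes, which are not independent. The SD of a detected probe had a median of 0.106 and a 95th percentile of 0.241, and 3 probes had a range over 1. Replicate 1 was the array farthest from the middle value for 43.9% of detected probes and for 72 of the 100 probes with the largest SD. Replicate 1 also had the highest median intensity and the most detected probes. The named genes with the largest SD were Gsn, the actin-severing protein gelsolin (7.29, 8.18 and 8.13), Tmsb4x (12.45, 11.61 and 11.72), Ecpas (7.51, 6.80 and 6.67), Hnrnpk (9.77, 10.61 and 10.47), Edf1 (10.01, 10.90 and 10.38), Pip4p2, Exosc2, Urb2, Cox6c, Rps25, Rbbp7, Pds5a, Rab18, Tsc22d1 and Gm10925, with SDs from 0.386 to 0.499. In Gsn, Tmsb4x, Ecpas and Hnrnpk replicate 1 stood apart from the other arrays.

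At the threshold, detection rested on small differences. Just inside it, with a largest detection p-value of 0.00962, lay Bex1 (6.19), Abracl (6.19), Gabra4 (6.20), Myl9 (6.20) and Tsr2 (6.21). Just outside it, with a largest detection p-value of 0.0107, lay Ppp2r5b (6.43), Ddx19b (6.42), Sec24d (6.41), Arid2 (6.40) and 9530077C05Rik (6.36), each detected on 2 arrays. Ties in the p-value were broken towards the dimmest genes inside and the brightest outside, so the order of these signals is set by that choice.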

How the data were processed

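Untreated TC-1/A9 cells gave total RNA for 3 Illumina Mouse WG6 arrays, grouped by the titles of the samples. Per the study's methods the arrays were read with BeadStudio. The deposited table gives for each probe a mean bead intensity, linear and without normalization across arrays, and a detection p-value, whose steps correspond to 936 negative controls. How background was treated at export is not stated in the sources used here. The authors' own processing, deposited as log2 values after quantile normalization and made with limma per the submitters' notes, covers 12421 probes, which were those detected on at least 2 of 3 arrays of the untreated or the IFNγ group, as checked on the files.

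Here log2 intensities were quantile normalized over all probes of the 3 untreated arrays with no background correction (Python 3.11.15, pandas 2.3.3, numpy 2.4.6), which was checked against limma 3.58.1 in R 4.3.3 and tested on simulated data. The detection p had to be 0.01 or less on all 3 arrays. Gene symbols were looked up in RefSeq through the Entrez ID for 9809 probes, an accession for 729 and a synonym for 389, and were kept for 253. The symbol changed for 664 probes, and 1241 probes of the value table had no symbol. No probe had several. A gene took the values of its brightest detected probe.

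The 41 lists, 817 genes in all, and the rule for named genes were chosen with earlier results of these data known. The rule takes the 30 brightest genes, up to 8 brightest detected members and every undetected named member of each list, every named member of the MHC, interferon receptor, checkpoint, DNA methylation, lung factor, Hox and X/Y lists, the 15 genes with the largest SD and 5 genes on each side of the threshold. Promoters and some further list members were added after values were seen. No test was run, since 1 group was described. Alternatives were detection p of 0.05 or 0.001, detection on fewer arrays, symbols as listed, quantile normalization over all 6 arrays, the value table, neqc with an offset of 16, centring on the 75th percentile, no normalization, the mean over probes, and each array left out.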

Additional observations from a re-analysis of the deposited data

How the results depend on the processing

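The counts of detected probes (9390 to 13003), named genes (6294 to 7677) and protein-coding genes (6102 to 7418) stayed within 1.5 times the reported count under every detection rule, array omission and symbol choice tried. At a detection p of 0.001 the pan-epithelial list fell to 0 detected members, the T and NK cell list to 1 and the chemokines to 4. At a detection p of 0.05, and with detection on at least 2 or at least 1 array, myeloid genes rose to 4 and the muscle, neural and pluripotency lists to 1 each; the melanocyte list rose to 1 at 0.05 and on at least 1 array. With 1 array left out, myeloid genes ranged from 1 to 3, and the muscle, neural and pluripotency lists from 0 to 1. Myeloid counts were 3 without replicate 1 and 2 without replicate 3, the muscle and neural lists reached 1 without replicate 3 and the pluripotency list 1 without replicate 1. All other list counts stayed within 1.5 times, which for the MHC class I list includes a rise from 10 to 14 at a detection p of 0.05.

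The median signal of detected genes was 8.15 with 6-array quantile normalization and in the value table, which hold the same values, 8.06 with neqc, 7.95 with the mean over detected probes, and 8.02 to 8.35 with 1 array left out, since the reference distribution then changes. The median SD was 0.313 without normalization, 0.161 with 75th percentile centring, and 0.0693 to 0.105 with 1 array left out, the lowest without replicate 1. An SD with 1 array left out rests on fewer arrays, so it is not directly comparable with the SD over all arrays. Of the 30 brightest genes, 24 remained among the 30 with the mean over probes and at least 29 under the other settings. The mean over probes moved 128 of 447 named genes beyond their SD, by up to -3.53 for Rps19, whose probes stood at 14.46 and 7.40. Background correction by neqc moved 225, by up to -1.25 (Tap1), and the cause of the neqc shifts was not tested. Leaving out replicate 1 moved 316, replicate 3 249 and replicate 2 65, and 6-array normalization moved 91. No normalization and centring leave mean levels almost unaltered by construction. No paired analysis was possible because no groups were compared. Detection shows signal over background, not amount.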

Other observations

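Genes outside the lists were looked at after their values were seen, and are given as descriptions. The constitutive 20S proteasome, the particle whose subunits the immunoproteasome replaces, was detected for 11 of 14 subunit genes and the other 3 were not analysed here. The catalytic subunit genes Psmb5, Psmb6 and Psmb7 read 8.31 ± 0.04, 11.44 ± 0.15 and 10.83 ± 0.16, and Psmb2 was the brightest at 13.56 ± 0.09. The interferon-induced transmembrane protein genes Ifitm1 (12.52 ± 0.05), Ifitm2 (12.24 ± 0.19) and Ifitm3 (12.54 ± 0.06) were all detected in the untreated cells. They are not read as standing for interferon-inducible genes at large. Irf1, given above, was also detected, whereas Bst2 (5.82), Usp18 (5.57), Oasl2 (5.59), Igtp (5.79) and Irgm2 (5.60), among others, were detected on no untreated array. The latter genes carry names only because the arrays of IFNγ-treated cells detected them, so their lack of detection here is not read as a result. The tetraspanin genes Cd63 (13.32 ± 0.07), Cd151 (11.95 ± 0.08), Cd81 (11.83 ± 0.17), Cd9 (11.79 ± 0.20) and Cd82 (7.59 ± 0.17) were detected.

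Some detected genes are known mainly from reproductive or placental tissue. The X-linked homeobox gene Rhox5, known from testis and placenta, read 12.78, 12.46 and 12.61, and the proliferin genes Prl2c2 (9.05, 8.49 and 8.87) and Prl2c3 (10.08, 9.80 and 10.09), known from placenta and growing fibroblast lines, were also detected. The proliferin genes are near-identical copies, so their probes may not tell them apart.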
